A study of Fragaria x ananassa with 28 samples.

Results

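comp99435_c1_seq1 is an assembled transcript of strawberry fruit whose best Swiss-Prot match is the quinone oxidoreductase-like protein At1g23740 of Arabidopsis thaliana. It was described together with every transcript that carries the same Swiss-Prot description in the deposited expression table. These were 58 of 301219 transcripts, spread over 15 components of the assembly. A component is a set of assembled forms, which can be splice forms, alleles or homoeologous copies of a gene. Of the 58 transcripts, 12 in 7 components reached an RPKM of 1 in 2 libraries or more, a filter passed by 99136 transcripts. RPKM is the number of reads on a transcript, scaled to its length in kilobases and to the counted reads of the library. The lead transcript was chosen by its RPKM levels across the groups, so these levels are given as a description with no test. The other 57 were taken because they share its description, a choice made with earlier results of these data known.

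Proteins of this family are NADPH-dependent reductases of the medium-chain dehydrogenase superfamily. The Arabidopsis protein is known as a chloroplast reductase that acts on the double bond beside the carbonyl group of reactive alkenals and alkenones. In strawberry, a related quinone oxidoreductase, also called enone oxidoreductase, is known to make the last step to furaneol, a furanone with a caramel smell and a main part of the aroma of the ripe fruit. Furaneol is known to be built from fructose 1,6-bisphosphate, and it can be methylated by an O-methyltransferase or joined to glucose by a glycosyltransferase. No description in the table named a 2-methylene-furan-3-one reductase or an enone oxidoreductase (0 transcripts), so the files do not pair any of the 58 transcripts with the characterised strawberry enzyme.

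The RNA came from receptacles, the part of a strawberry that is eaten, of the octaploid cultivar 'Toyonoka'. Each fruit received 100 µL of solution in the receptacle core 2 weeks after flowering: distilled water, 1 µM abscisic acid (ABA, the plant hormone best known for promoting ripening in strawberry) or 100 µM nordihydroguaiaretic acid (NDGA, named in the labels as a blocker of ABA synthesis and also known as a lipoxygenase inhibitor). The 7 groups were water at days 0, 5 and 8, ABA at days 5 and 8, and NDGA at days 5 and 8, with 2 polyA mRNA libraries each. RNA of 10 fruits was pooled for each group, and nothing states that the 2 libraries came from separate pools, so the spread behind the p-values below may be technical only. The libraries held 7356752 to 9035037 counted reads, which makes 1 read on a 1 kb transcript worth 0.111 to 0.136 RPKM. All 14 libraries were closest to the other library of their own group. In bulk tissue, fewer cells that express a gene and less RNA per cell cannot be told apart.

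The 58 transcripts differed widely in how well they matched the Arabidopsis protein. Swiss-Prot match scores in the authors' table ran from 48.5 to 524, with 5 transcripts of 4 components between 358 and 524 and the other 53 at 154 or less. comp106060_c1_seq1 had the highest score, 524, and the lead transcript and comp101449_c0_seq1 both had 444. The remaining members of the high group were comp106060_c0_seq2 at 368 and comp101449_c0_seq2 at 358. A lower score means a weaker match, so the shared description covers transcripts of unequal likeness. Of the 58 transcripts, 55 shared the orthologous group description of the lead transcript, NADPH:quinone reductase and related zinc-dependent oxidoreductases. Their lengths ran from 338 to 2048 bases, and the lead transcript was 1676 bases long.

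Most transcripts with the description had few or no reads. In all 14 libraries, 34 of the 58 were listed at 0, among them all 22 forms of 3 components. A further 12 had reads but did not pass the filter, with at most 1.38 RPKM in any library and 284 reads between them. One of these was the other form of the lead component, comp99435_c1_seq2, with 3 reads in total, so the component was represented almost wholly by the lead transcript. All 5 transcripts with a score of 300 or more passed the filter, a limit set after the scores were seen.

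**Figure D1:**
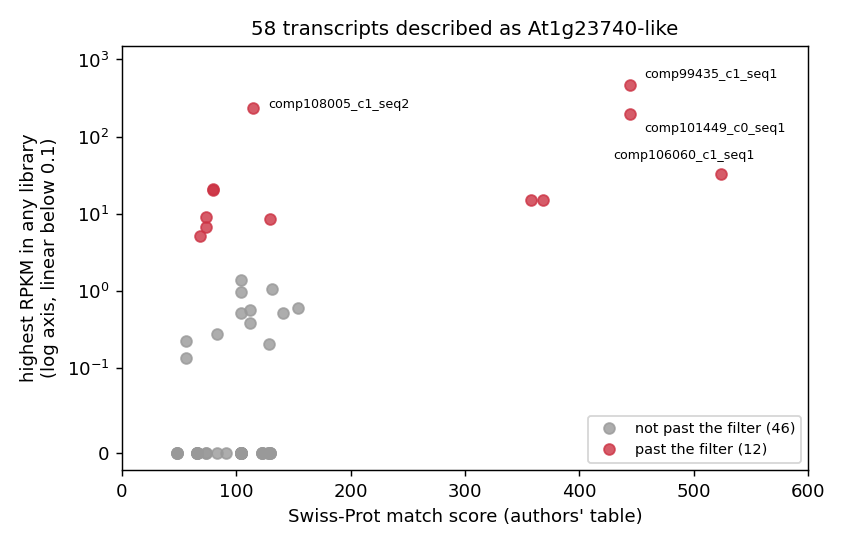
Swiss-Prot match score from the authors' table (x axis) against the highest RPKM in any of 14 libraries (y axis, log scale, linear below 0.1) for the 58 transcripts, with the 12 past the filter in red. The 5 transcripts at scores of 358 to 524 all passed the filter, and comp108005_c1_seq2 reaches 233 RPKM at a score of 115.

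The lead transcript had its lowest levels in fruit at day 0 and its highest in ABA-injected fruit at day 8. In the water libraries it was at 13.7 and 15.1 RPKM at day 0, at 43.6 and 37.1 at day 5, and at 373 and 351 at day 8. ABA-injected fruit held 212 and 204 RPKM at day 5 and 466 and 442 at day 8. NDGA-injected fruit held 16.7 and 19.3 RPKM at day 5 and 24.8 and 27.2 at day 8. Levels in water fruit thus stood higher at each later day, ABA fruit stood above water fruit of the same day, and NDGA fruit stood below. The counts behind these values ranged from 207 reads in a day 0 library to 6467 in an ABA day 8 library.

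**Figure D2:**
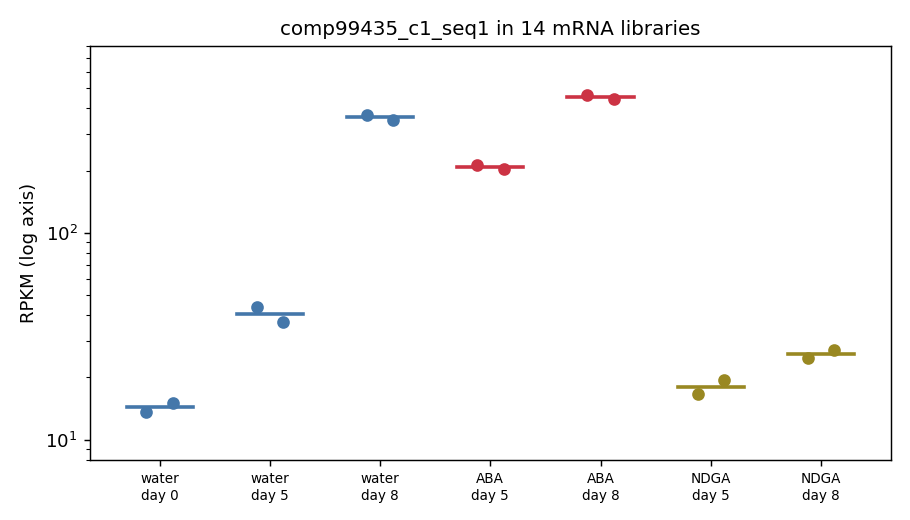
RPKM of comp99435_c1_seq1 (log axis) in each of 14 mRNA libraries by group, with points for libraries and a line at the mean of 2. The 7 groups do not overlap: day 0 lies at 13.7 and 15.1, all 4 NDGA libraries lie between 16.7 and 27.2, and the ABA day 8 libraries lie highest at 442 and 466.

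From lowest to highest mean, the groups were water day 0, NDGA day 5, NDGA day 8, water day 5, ABA day 5, water day 8 and ABA day 8. No 2 neighbours in this order overlapped. The narrowest step was the first, from 14.4 ± 0.983 RPKM in water at day 0 to 18.0 ± 1.85 in NDGA at day 5 (SD, n = 2 libraries each). The difference of 3.66 RPKM was larger than the 2 SDs added together, 2.84, but with 2 libraries a group such a step is a weak basis for an order. Above it, the means were 26.0 ± 1.74 for NDGA day 8, 40.3 ± 4.64 for water day 5 and 208 ± 5.59 for ABA day 5 (SD, n = 2 libraries each). Water day 8 stood at 362 ± 15.1 and ABA day 8 at 454 ± 16.7 RPKM (SD, n = 2 libraries each). The widest step in RPKM was between water day 5 and ABA day 5. Among all tested transcripts, the lead transcript ranked 9658th and 8857th by RPKM in the 2 day 0 libraries and 280th and 294th in those of ABA at day 8.

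During ripening in water-injected fruit, the mean RPKM of the lead transcript was 2.81 times as high at day 5 as at day 0, 25.2 times at day 8 as at day 0 and 8.97 times at day 8 as at day 5. On the log2(RPKM + 1) scale, which slightly understates the change of lower values, these differences were 1.42 (SE 0.132), 4.56 (SE 0.0780) and 3.14 (SE 0.122). Most of the distance between days 0 and 8 lay after day 5. The SEs here come from the 2 groups alone. The groups did not overlap in any of the 3 comparisons. With 2 libraries a group, this is an easier criterion than a limma call, and its share over all tested transcripts was not counted. For example, comp108005_c1_seq2 did not overlap between days 0 and 5 in water but was not called (limma adjusted p = 0.122). In these comparisons limma called 12.9%, 10.6% and 4.67% of all tested transcripts at an adjusted p below 0.05. These background shares are given for scale only, since the lead transcript was picked for its pattern.

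Transcripts of seed storage proteins moved over the same days. The labelled tissue is the receptacle, which carries the achenes, the seed-bearing dry fruits of strawberry. Transcripts with seed keywords (legumin, vicilin, 11S globulin, 2S albumin and oleosin) took 1.75% to 1.94% of the summed RPKM at day 0, 0.463% to 0.472% in water at day 5 and at most 0.0208% in any library of the other 5 groups. Of 69 such transcripts past the filter, 58 were lower and 1 was higher at day 8 than at day 0 in water, where 10.6% of all tested transcripts were called and 5.68% as lower. A transcript that passed the filter only through the groups where it was high had to be lower elsewhere, so this count is a description and supports no direction. The most abundant, comp113743_c1_seq5 (legumin A, a storage globulin), was at 2782 and 2135 RPKM at day 0, 439 and 455 in water at day 5 and between 0.56 and 5.68 elsewhere. Transcripts with xylem keywords, of which 15 passed the filter, took 0.0612% and 0.0704% at day 0 and 0.0225% to 0.0372% elsewhere. At day 8 they took 0.0325% and 0.0321% in water against 0.0225% and 0.0241% in ABA. In that comparison 6 of the 15 were called lower and 1 higher (13.3% of all tested transcripts were called, 8.98% as lower). At day 8 the seed share was 0.0208% in both water libraries, 0.00790% and 0.00683% in ABA and 0.0130% and 0.0122% in NDGA. The part of seed or xylem RNA in any of the differences was not tested.

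ABA and water fruit differed more in the lead transcript at day 5 than at day 8. At day 5 the ABA mean was 5.16 times the water mean, a log2 difference of 2.34 (SE 0.118), and single library ratios ran from 4.68 to 5.72. At day 8 it was 1.25 times the water mean, a log2 difference of 0.33 (SE 0.0567), with library ratios from 1.19 to 1.33. Neither pair of groups overlapped, an easier criterion than a limma call. By limma, 2.16% and 13.3% of tested transcripts were called at days 5 and 8. The median transcript was 0.20 lower on the log2 scale in ABA than in water at day 8, so relative to it the lead transcript was 0.52 higher, and 0.63 higher after median-ratio scaling of the libraries. The ABA day 5 mean was 0.575 times that of water at day 8. The mean in ABA fruit was 2.18 times as high at day 8 as at day 5.

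In NDGA fruit the lead transcript stood nearer to its day 0 level than to that of water fruit at day 8. At day 5 the NDGA mean was 0.447 times the water mean, a log2 difference of -1.12 (SE 0.152). At day 8 it was 0.0719 times the water mean, a log2 difference of -3.75 (SE 0.0782), which puts water 13.9 times above NDGA. The groups did not overlap on either day, again an easier criterion than a limma call. By limma, 2.03% and 2.18% of tested transcripts were called. In NDGA fruit the mean was 1.44 times as high at day 8 as at day 5. The ABA mean was 11.6 times the NDGA mean at day 5 and 17.4 times at day 8. The ABA and NDGA comparisons share the water libraries of their day, so their differences from water are not independent of each other.

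The make-up of the transcripts with this description differed between groups. Before ripening, most of their summed RPKM belonged to comp108005_c1_seq2, a weaker match with a score of 115. It held 74.8% and 78.8% at day 0, against 6.03% and 6.14% for the lead transcript. In water at day 8 the lead transcript held 57.2% and 55.5%, and in ABA at day 8 it held 47.0% and 46.8%. In the NDGA libraries its share stayed between 6.78% and 8.87%. The summed RPKM of the 58 transcripts ran from 227 in a day 0 library to 991 in an ABA day 8 library. The 4 forms of comp101449_c0 held at most 0.636% at day 0 and 18.2% to 21.1% in ABA fruit at day 8.

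**Figure D3:**
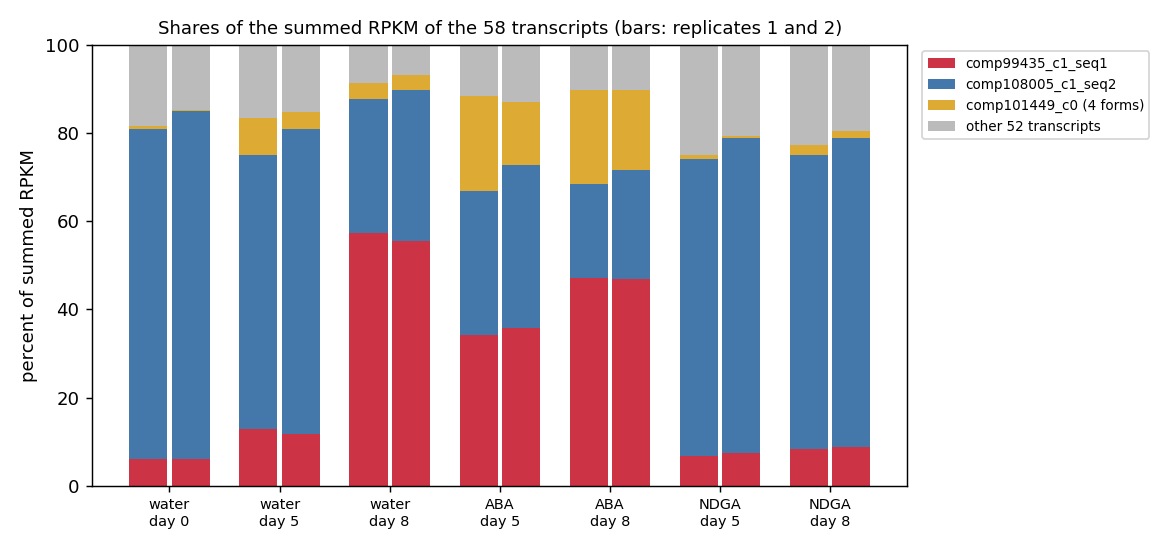
Percent of the summed RPKM of the 58 transcripts held by the lead transcript, comp108005_c1_seq2, the 4 forms of comp101449_c0 and the other 52 transcripts, with 1 bar per library in 7 groups. comp108005_c1_seq2 holds 74.8% and 78.8% at day 0, and the lead transcript holds 57.2% and 55.5% in water at day 8.

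comp101449_c0_seq1, whose score equals that of the lead transcript, was high in ABA fruit and low in water fruit at day 8. In water it was at 0.980 and 0.305 RPKM at day 0, 24.4 and 9.11 at day 5 and 14.3 and 9.99 at day 8. In ABA fruit it was at 109 and 61.7 RPKM at day 5 and 195 and 154 at day 8, and in NDGA fruit at 1.58 and 0.938 at day 5 and 6.00 and 4.41 at day 8. All 4 ABA libraries lay above every other library, and the water libraries of days 5 and 8 overlapped. At day 8 the lead transcript was 1.25 times as high in ABA as in water by its mean RPKM, and comp101449_c0_seq1 was 14.4 times as high.

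The other 11 transcripts past the filter were tested with limma over all 14 libraries, with p-values adjusted by Benjamini-Hochberg over all 99136 tested transcripts. These calls draw on the spread of all 7 groups: fitted on the compared groups alone, 1 of the 20 calls on the other members remained, that of comp101449_c0_seq1 in ABA at day 8. comp101449_c0_seq1 rose between days 0 and 5 in water by 3.32 on the log2(RPKM + 1) scale (SE 0.397, limma adjusted p = 9.4e-05), and stood 3.01 above day 0 at day 8 (limma adjusted p = 2.3e-04). ABA fruit were higher than water fruit by 2.38 at day 5 (limma adjusted p = 0.00546) and by 3.75 at day 8 (limma adjusted p = 3.0e-05). Its replicates at day 5 were far apart: without water day 5 replicate 2 the day 5 difference was 1.71 (limma adjusted p = 0.0698), and without ABA day 5 replicate 1 it was 1.97 (limma adjusted p = 0.0873). NDGA fruit were lower than water fruit at day 5, by a log2 difference of -2.84 (limma adjusted p = 0.00142). The difference at day 8, with 5.21 ± 1.13 RPKM in NDGA against 12.1 ± 3.03 in water (SD, n = 2 libraries each), did not pass.

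A pair of lower forms of the same component were called against water under ABA at day 5 only and under NDGA at day 8 only. comp101449_c0_seq2 was listed at 0 in both day 0 libraries, stood at 6.43 and 6.47 RPKM in water at day 8 and at 14.9 and 12.3 in ABA at day 5, and was between 0.167 and 1.11 in the 4 NDGA libraries. It was called higher at days 5 and 8 than at day 0 and at day 8 than at day 5 in water, higher in ABA than in water at day 5 (log2 difference 2.30, limma adjusted p = 8.3e-04) and lower in NDGA than in water at day 8 (-1.98, limma adjusted p = 0.00337). The call between days 5 and 8 in water was lost with a pseudocount of 0.1, in the sum over the component, without water day 5 replicate 2 and without either water day 8 library, and the call between days 0 and 5 without water day 5 replicate 1 (limma adjusted p = 0.0515). comp101449_c0_seq3 was at 0 in both NDGA day 8 libraries and at 3.93 and 4.69 RPKM in water at day 8, a log2 difference of -2.40 (limma adjusted p = 0.00215). It was also higher at day 8 than at day 0 in water and higher in ABA than in water at day 5, the latter a call that was lost with a pseudocount of 0.1 and without any 1 of the 4 libraries compared. For ABA at day 8, comp101449_c0_seq2 had 0.55 and comp101449_c0_seq3 had 0.40, which did not pass (limma adjusted p = 0.284 and 0.527). For NDGA at day 5 they had -1.19 and -1.08, which did not pass either (limma adjusted p = 0.0719 and 0.169). Both forms passed the filter only through water fruit of days 5 and 8 and ABA fruit, where they were higher. In the day 0 and NDGA libraries comp101449_c0_seq2 was at most at 1.11 RPKM and comp101449_c0_seq3 at 0.476. Their calls against day 0 and in NDGA are therefore a description and support no direction. Of the 20 calls on the other members over 7 comparisons, 13 were on these 3 forms, which are not independent of each other because reads may be shared between forms of a component. The fourth form had no reads.

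The best match of all, comp106060_c1_seq1, was higher in ABA fruit but, in its levels, not lower in NDGA fruit. Its water libraries were at 3.23 and 5.71 RPKM at day 0, 7.64 and 7.00 at day 5 and 11.03 and 8.89 at day 8. It stood at 23.4 and 22.7 RPKM in ABA at day 5 and 33.1 and 30.9 at day 8, and at 13.5 and 14.3 in NDGA at day 5 and 13.0 and 15.5 at day 8. All 4 NDGA libraries lay above all 6 water libraries and below all 4 ABA libraries. ABA fruit were higher than water fruit by 1.53 at day 5 (SE 0.220, limma adjusted p = 0.00159) and by 1.60 at day 8 (SE 0.220, limma adjusted p = 2.8e-04), and water fruit were higher at day 8 than at day 0 by 1.03 (limma adjusted p = 0.00792). The last call was lost without water day 0 replicate 1, at 0.70 (limma adjusted p = 0.0626), and without water day 8 replicate 1, at 0.89 (limma adjusted p = 0.0779). The excess in NDGA over water at day 5, 0.84, did not pass (limma adjusted p = 0.0791).

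comp106060_c0_seq2, whose component carries the same leading number, stood at a lower level. It was between 1.87 and 3.68 RPKM in the 6 water libraries, 8.28 and 10.2 in ABA at day 5, 11.1 and 14.9 in ABA at day 8, 7.29 and 7.00 in NDGA at day 5 and 5.21 and 4.94 in NDGA at day 8. No treated library overlapped the water libraries. It was higher in ABA than in water by 1.58 at day 5 (limma adjusted p = 0.00819) and by 1.72 at day 8 (limma adjusted p = 0.00111). In NDGA fruit at day 5 it was higher than in water by 1.26 (limma adjusted p = 0.0368). That call was lost without any 1 of the 4 libraries compared, with limma adjusted p from 0.0742 to 0.263, without ABA day 5 replicate 1 or 2 or ABA day 8 replicate 2, without either NDGA day 8 library (limma adjusted p = 0.0563 each), with no filter and with quantile normalization. The ABA call at day 5 was lost when water day 5 replicate 2 (limma adjusted p = 0.102) or the second ABA library of day 5 (limma adjusted p = 0.0936) was left out.

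comp108005_c1_seq2, the transcript that dominated the description at day 0, varied little. It lay between 166 and 233 RPKM in all 14 libraries, with group means from 176 ± 14.3 in NDGA day 5 to 223 ± 14.3 in ABA day 8 (SD, n = 2 libraries each). Its 7 comparisons gave 0 calls by limma, with 2 at an unadjusted p below 0.05 and 1 call by limma's voom on recovered reads. The 4 forms of comp104057_c0, with scores of 68.2 to 80.1, lay between 0.466 and 21.1 RPKM. Over their 28 tests there were 0 calls by limma, 3 at an unadjusted p below 0.05 and 1 call by voom. comp112364_c1_seq6, with a score of 73.9, was at 9.14 and 7.56 RPKM in ABA at day 8 and between 0.607 and 4.63 in the other 12 libraries. It was called higher in ABA than in water at day 8 by 1.84 (limma adjusted p = 0.0197), a call that was lost without any 1 of these 4 libraries, with a pseudocount of 0.1 and in the sum over the component.

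**Figure D4:**
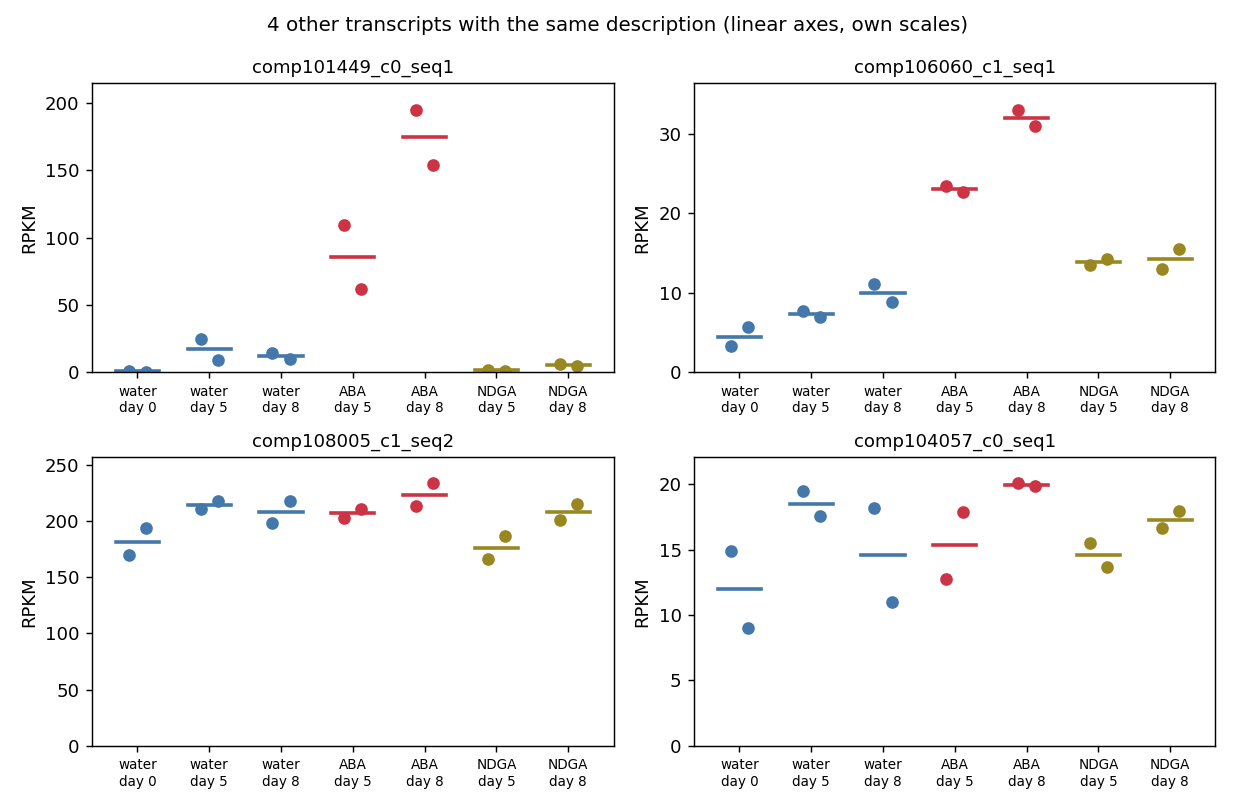
RPKM by library (points) and group mean of 2 (lines) for 4 other transcripts with the description, each on a linear axis of its own scale. comp101449_c0_seq1 reaches 154 and 195 in ABA at day 8, comp106060_c1_seq1 lies at 13.0 to 15.5 in NDGA, comp108005_c1_seq2 stays between 166 and 233, and comp104057_c0_seq1 lies between 8.99 and 20.1.

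Counted per comparison, 2 of the 11 other members were higher at day 5 than at day 0 in water (12.9% of all tested transcripts were called there, 4.98% as higher) and 4 at day 8 than at day 0 (10.6%, 4.87% as higher). Only 1 was higher at day 8 than at day 5 (4.67%, 2.89% as higher). ABA fruit had 5 higher at day 5 (2.16%, 1.21% as higher) and 4 at day 8 (13.3%, 4.3% as higher). In NDGA, 1 was higher and 1 lower at day 5 (2.03%, 1.23% as higher and 0.802% as lower), and 2 were lower at day 8 (2.18%, 1.48% as lower). The 11 transcripts come from 6 components, and passing the filter favours those that are high in some group, so these counts do not support a direction for the description as a whole. Whether a treatment's difference from water changed between days 5 and 8 was compared in a contrast added after the values were seen: it called 1 of the 11 for ABA (3.69% of all tested transcripts) and 0 for NDGA by limma (2.65%), with 4 and 3 at an unadjusted p below 0.05 and 1 and 0 calls by voom. The 1 call was comp101449_c0_seq2, at -1.75, while the sum over its component had 0.60, which did not pass (limma adjusted p = 0.622). The median log2 difference of the 11 was 0.34 for ABA against water at day 5 and 0.55 at day 8, against 0.00 and -0.20 over all tested transcripts.

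Enzymes named like the family or acting on the same kind of substrate were taken by keyword. The whole list, which also caught unrelated enzymes, was called about as often as other transcripts. Of 64 such relatives past the filter, 28 were subunits of the plastid or mitochondrial NADH dehydrogenase complexes caught by the shared words quinone oxidoreductase, which are unrelated enzymes, and 36 were reductases, a split made after the descriptions were read. Over the 7 comparisons limma made 31 calls on these relatives in 448 tests, 12 higher and 19 lower. That is 6.92% of the tests, near the 6.82% over all tested transcripts and the same 7 comparisons (20009 higher and 27338 lower), so the count is no result about the relatives as a list. The 36 reductases had 22 calls in 252 tests (8.73%), 7 higher and 15 lower. The 28 subunits had 9 calls in 196 tests (4.59%), 5 higher and 4 lower. comp100479_c0_seq3, described as a chloroplast quinone oxidoreductase homolog known from spinach, was the most abundant relative. It was at 171 and 253 RPKM at day 0 and 96.9 and 112 in water at day 5 (called lower at day 5, limma adjusted p = 0.00178). In ABA at day 5 it was at 154 and 201 RPKM and was called higher than in water (0.75, limma adjusted p = 0.0413, near the limit). At day 8 the ABA difference of 0.37 did not pass (limma adjusted p = 0.194). comp99356_c0_seq4 has the same description and was at 28.3 and 30.2 RPKM in water at day 8 against 10.8 and 9.36 in ABA (-1.45, limma adjusted p = 6.7e-05). comp103533_c1_seq8, described as the Arabidopsis alkenal double bond reductase P1, was at 41.8 and 47.0 RPKM in water at day 8 against 19.3 and 20.5 in ABA (-1.12, limma adjusted p = 1.4e-04). comp105716_c0_seq4, a further chloroplast homolog, fell by 1.25 between days 0 and 5 in water (limma adjusted p = 0.00494), a call lost without water day 0 replicate 2 (limma adjusted p = 0.0663). In NDGA against water at day 5 there were 0 calls on the relatives by limma, 9 at an unadjusted p below 0.05 and 1 call by voom.

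Enzymes around the furaneol route gave 61 calls by limma over 7 comparisons among 82 tested transcripts, 29 higher and 32 lower, or 10.6% of the tests against 6.82% over all tested transcripts. The share called was 20.7% in ABA against water at day 8, where 13.3% of all transcripts were called, and 2 of these 17 were higher. Over all tested transcripts 4262 were higher and 8901 lower in that comparison, and the median log2 difference was -0.22 on the list and -0.20 over all. Of the 82, 75 were enzymes of sugar phosphates and 7 were O-methyltransferases or glycosyltransferases, again a split made after the descriptions were read. Of these 7, 4 were called in ABA against water at day 8, all lower (8.98% of all tested transcripts were lower), with a median log2 difference of -1.40 over the 7. In water, 4 were called at day 5 against day 0, 1 higher and 3 lower (12.9% of all called, 7.90% as lower). At day 8 in water, 3 were higher and 0 lower against day 5 (4.67% of all called), and 2 higher and 0 lower against day 0 (10.6%). Over the 7 comparisons these 7 transcripts had 17 calls in 49 tests (34.7%), 8 higher and 9 lower. The 75 sugar phosphate enzymes had 44 calls in 525 tests (8.38%), 21 higher and 23 lower. comp98837_c1_seq1, described as caffeic acid 3-O-methyltransferase, an enzyme family of which a strawberry member is known to methylate furaneol, was at 189 and 176 RPKM at day 0, 302 and 277 in water at day 5 and 567 and 459 in water at day 8. It rose between days 0 and 8 by 1.48 on the log2 scale (limma adjusted p = 7.5e-06) and was lower in NDGA than in water at day 8 by a difference of -0.94 (limma adjusted p = 0.00200). In ABA at day 8 it was at 599 and 459 RPKM, overlapping water of the same day (0.04, limma adjusted p = 0.902). comp107796_c0_seq9, a cytoplasmic fructose-bisphosphate aldolase and the most abundant of the list, rose between days 0 and 8 by 0.67 (limma adjusted p = 2.4e-05). Its excess of 0.39 in NDGA over water at day 8 (limma adjusted p = 0.00836) was lost in the sum over the component and without NDGA day 8 replicate 1 or either water day 8 library. comp105107_c0_seq1, described as a chloroplast fructose-1,6-bisphosphatase, was at 17.3 and 17.9 RPKM at day 0 and 2.05 and 0.187 in water at day 5 (log2 difference -3.29, limma adjusted p = 7.0e-05).

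The triosephosphate isomerase form comp107197_c0_seq4 was at 8.95 and 9.31 RPKM in water at day 8 and between 14.6 and 39.3 in the other 12 libraries. It was called higher in ABA than in water at day 8 by 1.70 (limma adjusted p = 1.2e-05), but the sum over its component gave -0.27, so its calls belong to that form and not to the component.

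Transcripts of ester and terpene aroma enzymes, the other main groups of strawberry volatiles, gave 102 calls by limma among 80 tested transcripts over 7 comparisons, 53 higher and 49 lower, or 18.2% of the tests against 6.82% over all tested transcripts. The list also holds cinnamyl alcohol dehydrogenases of lignin synthesis, caught by keyword. comp105300_c1_seq3, described as vinorine synthase, an acyltransferase known from Rauvolfia, was at 58.1 and 63.9 RPKM at day 0, 164 and 169 in water at day 5 and 244 and 254 in water at day 8. It stood at 309 and 302 RPKM in ABA at day 5, 360 and 373 in ABA at day 8, 154 and 150 in NDGA at day 5 and 97.9 and 113 in NDGA at day 8. The ABA libraries lay above all water libraries and the NDGA libraries below the water libraries of their day. For NDGA at day 5 the log2 difference of -0.13 did not pass (limma adjusted p = 0.623). The called differences from water were 0.87 and 0.56 for ABA at days 5 and 8 (limma adjusted p = 7.9e-05 and 8.6e-04) and -1.24 for NDGA at day 8 (limma adjusted p = 7.2e-06). A second transcript of this description, comp105386_c0_seq4, was called in the same directions in these 3 comparisons. Its ABA call at day 5 was lost without either water day 5 library or ABA day 5 replicate 2, and that at day 8 when water replicate 1 or ABA replicate 2 of that day was left out. The alcohol dehydrogenase 1 transcript comp106877_c1_seq2 instead was at 376 and 386 RPKM in water at day 5 and 105 and 108 at day 8, against 171 and 179 in ABA and 170 and 174 in NDGA at day 8.

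The transcripts most like the lead transcript were ranked by Pearson's r of log2(RPKM + 1) over the 14 libraries, among 9548 described transcripts with a mean of 10 RPKM or more in their highest group. The libraries are 7 pairs that share treatment and time, so r describes these libraries and no p is given. Of the candidates, 64 (0.670%) had r of 0.9 or more, and the median r was -0.19. The closest was a second transcript described as caffeic acid 3-O-methyltransferase, comp100163_c0_seq4 (r = 0.987), which reached 21.4 RPKM. Next came comp96820_c1_seq4, described as aquaporin NIP1-1, a membrane channel (r = 0.983), and comp118873_c1_seq4, described as the strawberry anthocyanidin 3-O-glucosyltransferase 1, which adds glucose to the red pigments (r = 0.981). comp112571_c0_seq1, a plastidial pyruvate kinase, had r = 0.977. comp98837_c1_seq1, the O-methyltransferase described above, was the tenth with r = 0.965.

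A pair of transcripts described as MYB113, in Arabidopsis a transcription factor that turns on anthocyanin genes, stood among the 10 with r of 0.977 and 0.975. The first of them, comp93382_c0_seq1, was at 0 and 0.416 RPKM at day 0, 135 and 120 in water at day 8, 227 and 216 in ABA at day 8 and 7.53 and 7.71 in NDGA at day 8. The others were comp101697_c1_seq3, a plastid-lipid-associated protein (r = 0.975), comp53886_c0_seq1, described as SRG1 (r = 0.967), and comp101347_c0_seq17, described as the transcription factor bHLH147 (r = 0.967). The 3 most opposite were comp101686_c0_seq1, described as the transcription factor bHLH96 (r = -0.969), comp103087_c0_seq3, a metallothionein-like protein 1 (r = -0.961), and comp91087_c0_seq1, described as protein E6 of cotton (r = -0.949). comp101686_c0_seq1 was at 22.9 and 17.4 RPKM at day 0, 5.70 and 4.46 in water at day 8 and 3.14 and 3.49 in ABA at day 8.

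**Figure D5:**
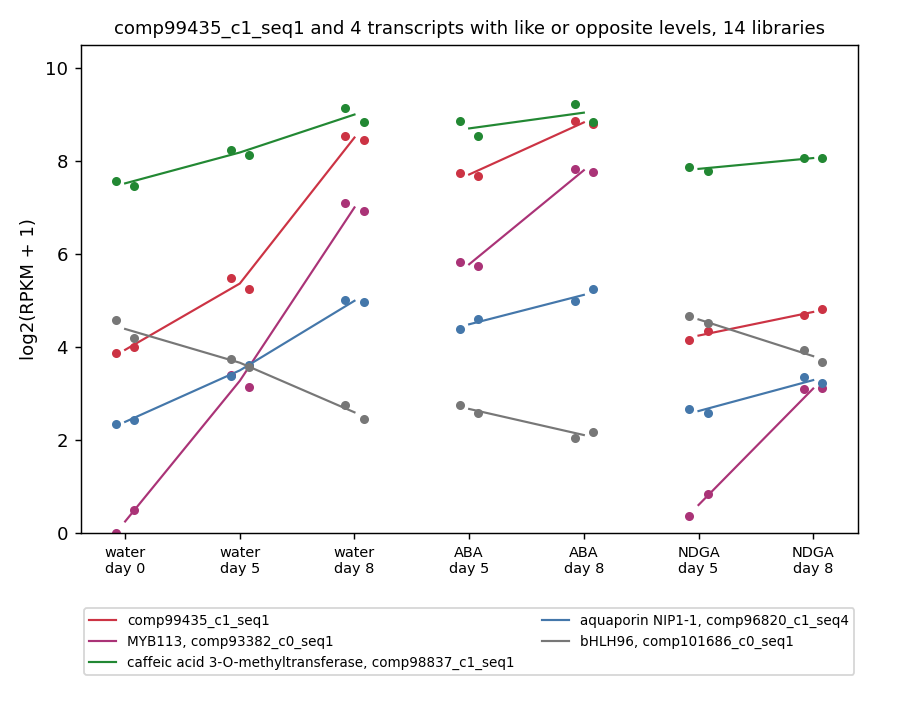
log2(RPKM + 1) of comp99435_c1_seq1 and 4 other transcripts in each of 14 libraries (points), with lines joining the means of a treatment over its days. MYB113, the O-methyltransferase comp98837_c1_seq1 and the aquaporin are ordered over the groups much as the lead transcript is (r = 0.977, 0.965 and 0.983), and bHLH96 in the opposite way (r = -0.969).

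Other members were less like the lead transcript by the same measure. comp101449_c0_seq2 had r = 0.943, comp101449_c0_seq3 had 0.916 and comp101449_c0_seq1 had 0.846. comp108005_c1_seq2 had r = 0.630 and comp106060_c1_seq1 had 0.622, while comp104057_c0_seq4 had -0.803. The authors' deposited list of clustered, differentially expressed transcripts holds 3 of the 58: comp112364_c1_seq6 in cluster 7, comp106060_c1_seq1 in cluster 8 and comp106060_c0_seq2 in cluster 9. The lead transcript and the forms of comp101449_c0 are not on that list.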

How the data were processed

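Per the file headers, the authors deposited RPKM for each library and assembled transcript. The aligner and counter were not given in the sources used here. Swiss-Prot match scores and descriptions are those the authors deposited. RPKM times length gave whole reads for 100% of values, within 0.1 of a read beside the rounding of RPKM. Groups come from the labels, and 8 lines without a transcript name were left out, as were the small RNA libraries.

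Transcripts that reached an RPKM of 1 in 2 libraries were fitted with limma 3.58.1 (R 4.3.3) on log2(RPKM + 1) over 14 libraries and 7 groups, without covariates and with a trended prior (residual df 7, prior df 6.05), with Benjamini-Hochberg adjustment within each of 7 comparisons and calls below 0.05. The fit was also run on simulated data with normal noise on the log2 scale. Changes were added there only to transcripts above a set mean level, so the run does not cover changes in transcripts near 0. The members, the 4 keyword lists and the naming rule (from each list the most abundant transcript and the 3 with the smallest adjusted p at 10 RPKM or more, 1 per component; the 10 most and 3 least like the lead transcript) were chosen with earlier results of these data known. Alternatives were another pseudocount, no filter or a stricter one, quantile and median-ratio normalization, a replicate block, the compared groups alone, limma's voom on recovered reads, sums per component and each library left out.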

Additional observations from a re-analysis of the deposited data

Results flagged for a closer look

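The effects of ABA and NDGA against water were compared between days 8 and 5 in the same limma fit, a contrast added after the values were seen, which called 3.69% of all tested transcripts for ABA and 2.65% for NDGA. Each value below is the log2 difference at day 8 minus that at day 5, and each passed at an adjusted p below 0.05. Among the members it was -1.75 for comp101449_c0_seq2 under ABA (2.30 at day 5 and 0.55 at day 8, limma adjusted p = 0.0415). The more abundant form comp101449_c0_seq1 had the opposite sign, 1.37, which did not pass (limma adjusted p = 0.235), and the sum over the component had 0.60 (2.40 at day 5 and 3.00 at day 8, limma adjusted p = 0.622), so the value belongs to that form and not to the component.

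Among the relatives and furaneol route transcripts under ABA it was -0.99 for comp99356_c0_seq4, -2.66 for comp105107_c0_seq1 and 1.62 for comp107197_c0_seq4. Under NDGA it was 1.98 for comp107197_c0_seq4 and 0.67 for comp107796_c0_seq9. For the alcohol dehydrogenase transcripts it was 1.08 under ABA and 0.81 under NDGA for comp106877_c0_seq4, and 0.43 and 0.94 for comp106877_c1_seq2. The vinorine synthase transcripts had -1.11 (comp105300_c1_seq3) and -1.03 (comp105386_c0_seq4) under NDGA.

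The seed storage transcripts had the highest values, since they were near 0 in every day 8 group and at 316 to 511 RPKM in water at day 5. Under ABA and NDGA these were 7.68 and 7.74 for comp113743_c1_seq5, 7.29 and 7.64 for comp115929_c3_seq2, 7.17 and 8.23 for comp99556_c0_seq1, and 7.79 and 8.06 for comp99556_c1_seq5.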

How the results depend on the processing

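The 7 differences of the lead transcript kept their direction under every alternative, and the one for ABA at day 8 moved from 0.33 to 0.63 with median-ratio scaling. With 2 libraries a group, calls rest on the spread shared by all 7 groups: when only the compared groups entered the fit, calls over the 7 comparisons went from 20 to 1 for the other members, from 61 to 2 for the furaneol route, from 102 to 9 for ester and terpene enzymes and from 284 to 106 for other tissues. For the relatives they went from 31 to 0 by limma, with 84 of 448 tests at an unadjusted p below 0.05 and 42 calls by voom over all groups. Over all transcripts that fit made 998, 823, 45, 10, 1135, 22 and 0 calls in the order of the comparisons in the text, in place of 12766, 10464, 4629, 2146, 13163, 2015 and 2164; in the last, 12583 were at an unadjusted p below 0.05. A pseudocount of 0.1 left 20 calls on the relatives and 1358 on all transcripts for NDGA at day 8. Sums per component gave 175 calls on other tissues, with 58 components tested in place of 84 transcripts. They also gave comp107197_c0_seq4 -0.23 (day 5 against day 0), 0.051 (day 8 against day 5) and -0.27 (ABA at day 8) in place of 0.88, -1.56 and 1.70. Leaving out 1 library gave 18 to 29 calls on the relatives, lowest without a water day 8 library, and 34 to 59 on the furaneol route, lowest without water day 8 replicate 2. Of the 20 calls on the other members, 12 held under every alternative but the fit of the compared groups alone. The background moved as well: without 1 library limma called 7445 to 12420, 6181 to 10130, 2110 to 4637, 982 to 2005, 7726 to 12962, 933 to 1949 and 838 to 2177 of all transcripts in the same order, lowest each time without a library of the groups compared. Causes were not tested. Libraries of the same replicate number deviated alike to a small degree (correlations of deviations 0.0503 to 0.101, all positive, over 21 pairs of groups, 1 over 0.1). What they share was not tested. With the number as a block, the other members had 24 calls and the furaneol route 83. Calls over all transcripts rose in each of the 7 comparisons, for example from 2146 to 2795 for ABA at day 5. The lead differences were the same in that replicate block fit, at 1.42, 4.56, 3.14, 2.34, 0.33, -1.12 and -3.75.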
